A study of Mus musculus with 8 samples.

Results

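The 10 genes described here are Nr3c1, which encodes the glucocorticoid receptor, Hsd11b1, which encodes an enzyme that supplies the receptor with active hormone, and 8 genes known to be induced by the receptor, namely Fkbp5, Tsc22d3, Sgk1, Cebpd, Cdkn1a, Klf9, Zbtb16 and Tat. They are 10 of the 18193 genes with a probe set of their own on the array, chosen as every probe set annotated with only that gene's mouse symbol, which gave 30 of 45037 probe sets. All RNA came from gallbladders of female mice of strain B6.V-Lep ob, which carry the obese mutation and make no functional leptin, so both treatments share that defect. From 8 weeks of age, after 1 week of acclimation on chow, 12 mice were given recombinant mouse leptin by daily intraperitoneal injection (5 µg per g body weight) and 12 mice were given saline. After 4 weeks of treatment, at 12 weeks of age and after an overnight fast, gallbladders were taken. RNA was made from 3 gallbladders at a time, giving 4 leptin pools (numbered 5 to 8) and 4 saline pools (numbered 1 to 4), each on 1 Affymetrix Mouse Genome 430 2.0 array. A pool averages 3 animals, so the spread given here is between pools, and there was no lean group and no saline group matched for food intake among these samples.

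Glucocorticoids, which in mice means mainly corticosterone, are adrenal steroids that enter cells and bind a receptor held in the cytoplasm by heat shock proteins and immunophilins. The bound receptor moves to the nucleus and acts on DNA, inducing some genes and repressing others, many of them inflammatory. Mice without leptin are known for raised blood corticosterone, and leptin treatment is known to lower it. Corticosterone was not among the measurements used here.

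The comparison of leptin with saline pools asked which genes leptin altered in this organ. Leptin pools had less of 4 of the 10 genes: Fkbp5, Sgk1, Cebpd and Cdkn1a, with log2 fold changes of -1.21, -0.75, -0.89 and -1.31. The receptor Nr3c1, the enzyme Hsd11b1 and the targets Klf9, Zbtb16 and Tat had overlapping signals in the treatments and did not pass the test, and Tsc22d3 came near its threshold without passing it. A gene is read from its brightest probe set, and a difference is called where the adjusted p from limma, corrected over 22519 tested probe sets, is under 0.05. Log2 fold changes are leptin minus saline on the log2(signal + 8.2) scale, given ± SE. Every mean and test rests on 4 leptin and 4 saline pools (n = 4 each).

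All 10 genes were bright enough to be tested, and 4 were called lower and 0 higher in the limma fit. At an unadjusted p under 0.05, 5 were lower and 0 higher. Of all 11719 tested genes, 8.27% were called, 3.98% lower and 4.29% higher with leptin. In the same 4 genes all leptin pools lay below all saline pools, a pattern found in 8.58% of tested genes, and in 0 of the 10 did all leptin pools lie above, against 8.45%. The median log2 fold change of the 10 was -0.31, beside 0.020 over all tested genes. Of the 30 probe sets, 27 were tested, 6 were called lower and 0 higher, beside 6.93% called, 3.39% lower and 3.54% higher, among all tested probe sets. In 6 of the 27 the leptin pools lay wholly below the saline pools, beside 7.40% of all tested probe sets, and in 1 wholly above, beside 8.12%.

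**Figure D1:**
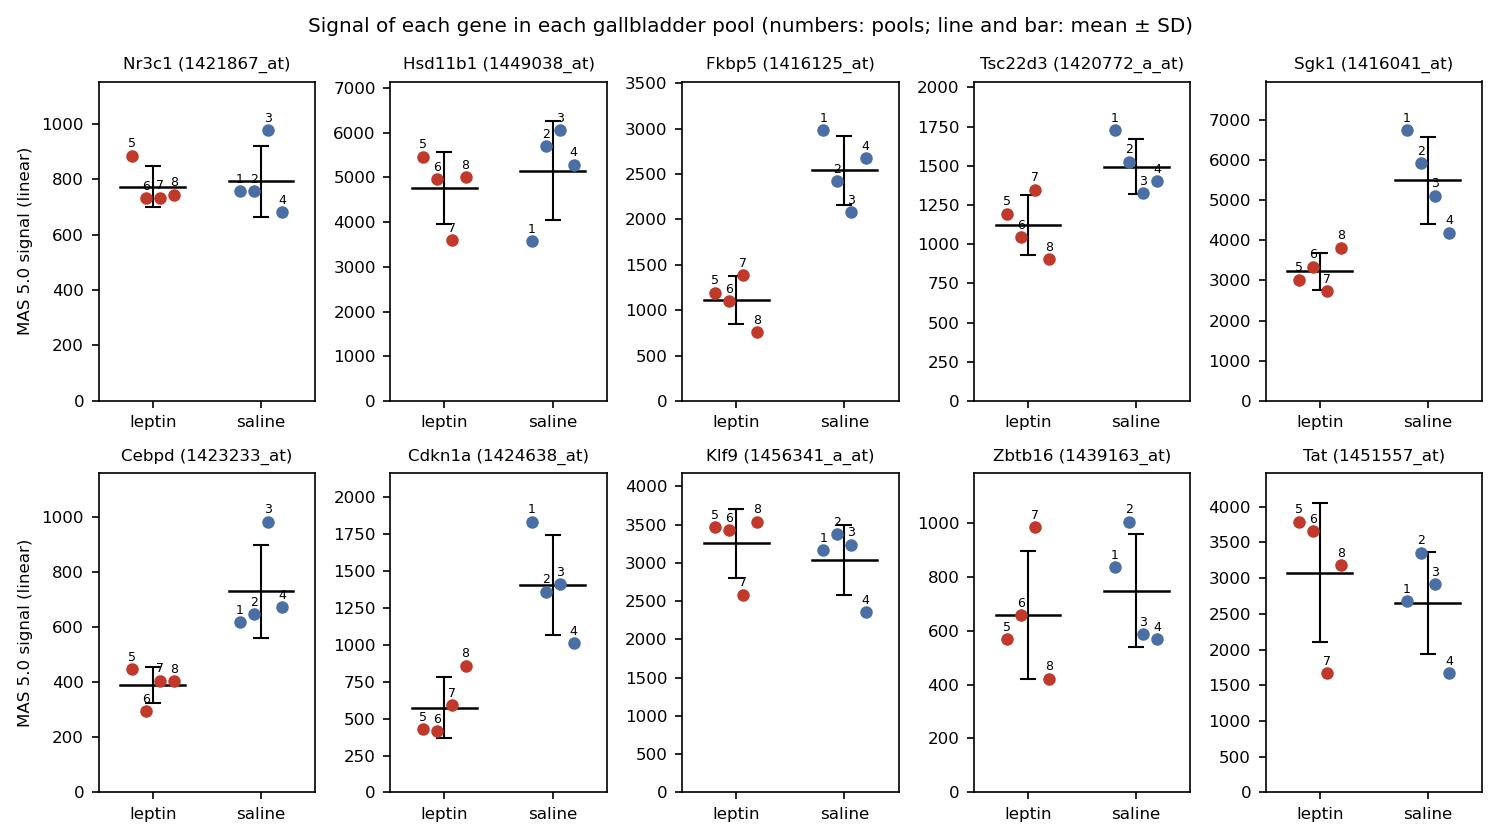
MAS 5.0 signal (linear scale, vertical axes starting at 0) of each of the 10 genes in every gallbladder pool, with leptin pools 5 to 8 in red on the left of each panel and saline pools 1 to 4 in blue on the right; the line and bar are the mean ± SD of 4 pools. The treatments do not overlap for Fkbp5, Sgk1, Cebpd and Cdkn1a, and overlap for the other 6 genes.

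Measures of the arrays and of cell type markers also moved with treatment. The ratio of actin signal at the 3′ end to that at the 5′ end, a sign of RNA quality, was 1.674 to 2.172 on leptin arrays and 1.498 to 1.683 on saline arrays. The median signal was 94.0 to 107 on leptin arrays and 77.8 to 87.3 on saline arrays. The summed signal of 12 gallbladder epithelium markers, led by Krt8 and Krt18, was 36496 to 40305 in leptin pools and 41580 to 51558 in saline pools, with 3 markers called lower and 1 higher. Macrophage markers, led by Csf1r and Lyz2, summed to 11419 to 13405 in leptin pools and 5402 to 6584 in saline pools, with 9 of 10 called higher. Markers of B and plasma cells, led by Ighm and Jchain, summed to 12765.5 to 20734 in leptin pools and 433.7 to 515.9 in saline pools, with 4 of 4 tested called higher. Jchain was dim in saline pools, and its leptin signals helped it to be bright enough for the test. Cd79a, Cd79b and Cd37 were too dim over all pools to be tested. Neutrophil and mast cell markers, led by S100a8 and S100a9, summed to 2958 to 4693 in leptin pools and 847.7 to 987.8 in saline pools, with 6 of 7 tested called higher. T and NK cell markers, led by Cd8a and Klrd1, summed to 540.5 to 815.6 in leptin pools and 348.2 to 515.9 in saline pools, with 0 of 2 tested called in limma and both higher at an unadjusted p under 0.05. Klrd1 was also dim in saline pools and was tested with the help of its leptin signals. Adipocyte markers, led by Fabp4 and Cd36, summed to 5689 to 8311 in leptin pools and 6309 to 18353 in saline pools, with 2 of 8 tested called lower and 5 lower at an unadjusted p under 0.05. The sums overlapped for hepatocyte markers (1 of 10 tested called higher), smooth muscle markers led by Acta2 and Tagln (1 of 8 higher, 1 lower), fibroblast and endothelial markers led by Dcn and Col3a1 (0 of 8 called, 3 higher at an unadjusted p under 0.05) and exocrine pancreas markers led by Ctrb1 and Prss2 (0 of 2, and 0 at an unadjusted p under 0.05). The part of these cell types in the results below was not tested. In whole gallbladders, fewer cells of a type and less RNA per cell cannot be told apart.

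The receptor gene itself did not pass the test on any of its 5 tested probe sets. The brightest, 1421867_at, gave signals of 883.8, 731.1, 733.0 and 744.1 in leptin pools 5 to 8, and of 755.6, 756.8, 976.1 and 681.1 in saline pools 1 to 4. The leptin 5 pool stood above the other leptin pools and the saline 3 pool above the other saline pools, and the treatments overlapped. The means were 773 ± 74.1 with leptin and 792 ± 127 with saline (SD), and the log2 fold change was -0.027 ± 0.13 (95% interval -0.32 to 0.26, adjusted p = 0.927). Its sign depended on the scaling, as it turned to 0.017 with quantile and to 0.045 with cyclic loess normalisation. Probe sets 1460303_at, 1457635_s_at and 1421866_at gave log2 fold changes of 0.053, 0.25 and 0.089, with adjusted p of 0.846, 0.438 and 0.817.

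A dimmer receptor probe set, 1453860_s_at, stood apart from the others. Its signals were 124.1, 151.0, 180.5 and 107.7 in leptin pools and 59.5, 88.1, 67.4 and 86.4 in saline pools, so every leptin pool lay above every saline pool. The log2 fold change was 0.83 ± 0.24 (95% interval 0.30 to 1.35), but the adjusted p was 0.0607. This probe set was dim in saline pools, and its leptin signals helped it to be bright enough for the test. The sixth receptor probe set, 1431378_at, was too dim to be tested, at 19.2 to 68.8 in leptin pools and 25.2 to 59.1 in saline pools, with 3 pools of each treatment under the background signal of 46.0. Probe sets of 1 gene can lie in different exons or transcripts, and which part of Nr3c1 each of these reads was not analysed here.

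Proteins that fold the receptor and those that act with it on DNA were followed through lists of related genes. Of 11 tested genes of the receptor's chaperone complex, 1 was called lower, 0 were called higher and 10 were not called. Their median log2 fold change was -0.063, and 2 were lower and 0 higher at an unadjusted p under 0.05. The called gene was Hspa4, a large heat shock protein that aids other chaperones, at 807 ± 22.1 in leptin pools and 1242 ± 100 in saline pools, a log2 fold change of -0.61 ± 0.11 (adjusted p = 0.00444). Of 14 tested coregulators, 1 was called lower, 0 were called higher and 13 were not called. Their median was -0.043, and 3 were lower and 1 higher at an unadjusted p under 0.05. The called coregulator was Smarca4, the ATPase of a chromatin remodelling complex, at -0.50 ± 0.12 (adjusted p = 0.0251).

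Hsd11b1 encodes the enzyme that turns inactive 11-dehydrocorticosterone into corticosterone inside cells, and it is abundant in liver and fat. Its only probe set, 1449038_at, gave signals of 5462.2, 4964.9, 3594.8 and 5012.5 in leptin pools and of 3569.6, 5707.1, 6057.0 and 5288.7 in saline pools. The leptin 7 and saline 1 pools were low, and the treatments overlapped. The means were 4759 ± 808 with leptin and 5156 ± 1103 with saline (SD), a log2 fold change of -0.10 ± 0.17 (95% interval -0.47 to 0.26, adjusted p = 0.751), which turned to 0.025 without the leptin 7 pool. Of 11 tested genes of steroid supply and metabolism, 2 were called lower, 0 higher (1 at an unadjusted p under 0.05) and 9 not, with a median log2 fold change of 0.10. Abcb1a, an efflux pump that exports glucocorticoids among other compounds, was at 1535 ± 125 in leptin pools and 2708 ± 566 in saline pools, a log2 fold change of -0.80 ± 0.14 (adjusted p = 0.00531). Akr1d1, a reductase that acts on the ring system of steroids and bile acid precursors, was at 557 ± 110 in leptin pools and 1108 ± 329 in saline pools, a log2 fold change of -0.95 ± 0.21 (adjusted p = 0.0182).

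Fkbp5 encodes an immunophilin that binds the receptor's chaperone complex and lowers its affinity for hormone, and the receptor induces it, so it forms a feedback loop. It fell with leptin on both of its tested probe sets. On 1416125_at the signals were 1193.6, 1095.4, 1385.7 and 756.9 in leptin pools, against 2982.4, 2420.0, 2081.5 and 2673.0 in saline pools. The highest leptin pool, number 7, lay well under the lowest saline pool, number 3. The means were 1108 ± 263 with leptin and 2539 ± 382 with saline (SD), and the log2 fold change was -1.21 ± 0.17 (95% interval -1.58 to -0.84, adjusted p = 0.00117), the 42nd lowest among 11719 tested genes. On 1448231_at the signals were 457.3, 453.6, 737.2 and 411.8 in leptin pools, against 1294.3, 1079.4, 923.6 and 858.5 in saline pools, again without overlap. Its log2 fold change was -1.02 ± 0.19 (adjusted p = 0.00643), a call lost with the actin ratio of each array as a covariate (-0.65, adjusted p = 0.173). The third probe set, 1447736_at, had signals of 0.90 to 22.5 in leptin pools and 1.40 to 1.80 in saline pools, all under background, and was not tested. The call of Fkbp5 was kept under all 20 alternative settings run, 1 of which averaged both tested probe sets, and the log2 fold change lay between -1.46 and -1.004 over them.

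The marker values beside Fkbp5 differed between saline pools. The adipocyte marker sum was 5689 to 8311 in leptin pools and 6309 in the saline 4 pool. The Fkbp5 signal of saline 4 was 2673.0 on 1416125_at. On 1448231_at it was 858.5, the lowest of the saline pools. Saline 4 was also the lowest saline pool in Sgk1 and Cdkn1a on their brightest probe sets. The adipocyte marker Cidec reached 251.7 in leptin pools and was 392.7 in the saline 4 pool, and Cd36 reached 1844 in leptin pools and was 1877 in the saline 4 pool. Cidec was picked after its values were seen. Pparg also lay above the leptin range in saline 4 (458.3, leptin 237.6 to 308.1). Other adipocyte markers went the other way. Saline 4 lay below every leptin pool in Adipoq (243.9, leptin 548.6 to 1184.9) and Lpl (515.7, leptin 694.6 to 1085.3). The same held for Retn (212.3, leptin 220.4 to 408.8). Fabp4 and Lep in saline 4 lay within the leptin range. The saline 1 pool had both the highest adipocyte sum, 18353, and the highest Fkbp5 signal, and the part of adipocytes in the Fkbp5 values was not tested.

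Tsc22d3 encodes GILZ, a leucine zipper protein that the receptor induces and that restrains inflammatory transcription factors. On its brightest probe set, 1420772_a_at, the signals were 1193.8, 1043.8, 1347.5 and 905.5 in leptin pools and 1726.8, 1526.6, 1324.7 and 1401.3 in saline pools. The treatments overlapped by 1 pair: leptin 7 lay just above saline 3. The means were 1123 ± 191 with leptin and 1495 ± 176 with saline (SD), and the log2 fold change of -0.42 ± 0.14 (95% interval -0.72 to -0.12) did not pass the test (adjusted p = 0.0876). It passed without the leptin 7 pool (-0.51, adjusted p = 0.0427), with array weights (-0.48, adjusted p = 0.0314) and with each array centred on its median (-0.67, adjusted p = 0.00845). It was smaller with the actin ratio as a covariate (-0.29, adjusted p = 0.463) and with the mean of its 4 probe sets (-0.20, adjusted p = 0.294). The second probe set, 1425281_a_at, gave 728.3, 694.8, 983.6 and 580.0 in leptin pools and 1216.3, 1181.5, 970.6 and 915.3 in saline pools, and its log2 fold change was -0.53 ± 0.16 (adjusted p = 0.0671). The dimmer probe sets 1425557_x_at and 1444365_at gave -0.17 and 0.34, with adjusted p of 0.520 and 0.376. The fitted values of the 4 probe sets of Tsc22d3 thus did not share a sign, though the interval of 1444365_at, -0.13 to 0.80, included 0.

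Sgk1 encodes a kinase induced by glucocorticoids and mineralocorticoids that raises sodium transport across epithelia. Its probe set 1416041_at gave signals of 3020.6, 3341.3, 2729.7 and 3817.2 in leptin pools, against 6741.3, 5918.7, 5110.8 and 4189.6 in saline pools. No leptin pool reached the lowest saline pool, number 4. The means were 3227 ± 466 with leptin and 5490 ± 1093 with saline (SD), a log2 fold change of -0.75 ± 0.15 (95% interval -1.07 to -0.44, adjusted p = 0.00929). Of 6 other tested genes of the SGK family and epithelial sodium transport, 1 was called lower, 0 higher and 5 not. Their median log2 fold change was -0.068, and 2 were lower and 1 higher at an unadjusted p under 0.05. The called gene was Scnn1a, the alpha subunit of the sodium channel on which the kinase acts. The genes of the channel's beta and gamma subunits, Scnn1b and Scnn1g, were too dim to be tested. Scnn1a had signals of 374.3 to 600.5 in leptin pools and 883.4 to 1328 in saline pools, a log2 fold change of -1.10 ± 0.17 (adjusted p = 0.00216).

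Sequence near the start sites is shown for Sgk1, Fkbp5 and Tsc22d3, which the receptor induces, to set the letters of the receptor's element beside these values. The windows are from RefSeq on build GRCm38.p6, run 5′ to 3′ on the gene's strand and hold 250 bases before and 50 after a start site. The element searched was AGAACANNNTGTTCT, and its arms AGAACA and TGTTCT were also searched alone, on both strands; capitals mark the arms. Windows were given for 7 of the 10 genes, 15 windows in all, while Nr3c1, Cebpd and Zbtb16 are named only. Sgk1 window 5 lies at chr10:21993640-21993939 on the plus strand, the Fkbp5 window at chr17:28486100-28486399 on the minus strand, and Tsc22d3 window 3 at chrX:140600473-140600772 on the minus strand.
Sgk1 window 5: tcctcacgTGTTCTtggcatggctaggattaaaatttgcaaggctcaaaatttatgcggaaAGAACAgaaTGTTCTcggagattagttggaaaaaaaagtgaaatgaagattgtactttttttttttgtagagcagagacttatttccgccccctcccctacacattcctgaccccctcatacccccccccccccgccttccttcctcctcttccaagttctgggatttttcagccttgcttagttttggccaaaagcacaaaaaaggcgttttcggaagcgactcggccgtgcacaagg
Fkbp5: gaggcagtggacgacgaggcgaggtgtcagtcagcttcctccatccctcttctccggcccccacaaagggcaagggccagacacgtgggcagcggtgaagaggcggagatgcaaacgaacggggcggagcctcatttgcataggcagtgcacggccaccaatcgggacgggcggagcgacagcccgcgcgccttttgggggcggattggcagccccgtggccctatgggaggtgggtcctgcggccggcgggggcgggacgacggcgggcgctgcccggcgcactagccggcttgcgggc
Tsc22d3 window 3: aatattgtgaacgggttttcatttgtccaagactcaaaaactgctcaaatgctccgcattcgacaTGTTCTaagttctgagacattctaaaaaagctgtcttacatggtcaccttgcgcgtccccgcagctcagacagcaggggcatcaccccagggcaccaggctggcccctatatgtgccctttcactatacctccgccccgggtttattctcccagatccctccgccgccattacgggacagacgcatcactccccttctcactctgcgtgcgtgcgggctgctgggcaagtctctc

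The full element stood in 3 of 32851 windows, 0.00913%, and 1 of these was Sgk1 window 5. There it reads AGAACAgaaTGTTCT, at chr10:21993701-21993715, 189 bases before that window's start site and 965 bases upstream of the start site in the last Sgk1 window. At least 1 arm stood in 18.97% of all windows and in 4 of the 15 windows of these genes, 3 of the 6 for Sgk1 and 1 of the 3 for Tsc22d3. The windows of Fkbp5, Cdkn1a, Klf9, Tat and Hsd11b1 held 0 arms. A match is a description of letters, and elements of receptor targets are known to lie far from start sites as well.

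Cebpd encodes a transcription factor of the C/EBP family that glucocorticoids and inflammatory signals induce. On 1423233_at the signals were 447.8, 295.7, 405.6 and 404.6 in leptin pools, against 617.3, 646.1, 982.2 and 672.3 in saline pools. The saline 3 pool was the highest, and the treatments did not overlap. The means were 388 ± 65.0 with leptin and 729 ± 170 with saline (SD), a log2 fold change of -0.89 ± 0.17 (95% interval -1.26 to -0.51, adjusted p = 0.00971). Its dimmer probe set, 1456605_at, gave 160.9, 76.6, 272.4 and 237.7 in leptin pools and 181.6, 275.3, 292.7 and 161.0 in saline pools, which overlapped, and the log2 fold change was -0.37 ± 0.33 (adjusted p = 0.539). With the mean of both probe sets the gene lost its call (-0.63, adjusted p = 0.118). Of 4 other tested C/EBP genes, 0 were called in limma and 1 was higher at an unadjusted p under 0.05. That gene was Cebpa, at 1266 to 2057 in leptin pools and 811.4 to 1450 in saline pools, with a log2 fold change of 0.60 ± 0.18 (adjusted p = 0.0642). It was called in 5 of 19 alternatives and came to 0.070 (adjusted p = 0.877) with the actin ratio as a covariate.

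Cdkn1a encodes p21, an inhibitor of cyclin-dependent kinases that the receptor and the tumour suppressor p53 both induce. Its brightest probe set, 1424638_at, gave signals of 426.7, 414.9, 590.5 and 858.4 in leptin pools, against 1834.1, 1361.3, 1411.4 and 1012.3 in saline pools. The leptin 8 pool was the highest of its treatment and saline 4 the lowest of its own, and they did not overlap. The means were 573 ± 207 with leptin and 1405 ± 337 with saline (SD), and the log2 fold change was -1.31 ± 0.23 (95% interval -1.80 to -0.83, adjusted p = 0.00456), the 30th lowest among 11719 tested genes. On 1421679_a_at the signals were 117.0, 181.4, 150.1 and 265.0 in leptin pools, against 281.3, 347.1, 267.6 and 317.4 in saline pools, where leptin 8 came within a few units of saline 3. Its log2 fold change was -0.79 ± 0.22 (adjusted p = 0.0468), a call lost in 10 of 18 alternatives.

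A Cdkn1a start-site window is shown because it holds an element of the other inducer, p53. Searched on both strands by the p53 consensus without a spacer, with at most 1 of its 20 letters off, 29 of 32851 windows (0.0883%) had a match, and 1 belonged to these genes. It is Cdkn1a window 1, at chr17:29090729-29091028 on the plus strand of GRCm38.p6. Capitals mark the match at chr17:29090928-29090947, 51 bases before that window's start site. The other Cdkn1a window, at chr17:29093519-29093818, lies downstream of the match and held none.
Cdkn1a window 1: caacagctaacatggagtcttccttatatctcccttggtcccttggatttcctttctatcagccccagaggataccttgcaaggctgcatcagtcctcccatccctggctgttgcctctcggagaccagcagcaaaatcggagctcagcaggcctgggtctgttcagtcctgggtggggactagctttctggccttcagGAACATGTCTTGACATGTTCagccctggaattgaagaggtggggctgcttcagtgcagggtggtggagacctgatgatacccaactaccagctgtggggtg

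Other p53 targets gave calls in both directions. Of 14 tested p53 target genes, 1 was called higher, 1 lower and 12 not, with a median log2 fold change of -0.15. At an unadjusted p under 0.05, 4 were lower and 2 higher. The summed signal of the 16 on the array was 7610 to 8117 in leptin pools and 8489 to 10051 in saline pools, without overlap. Bbc3, which encodes the cell death protein PUMA, had signals of 123.6 to 168.6 in leptin pools and 19.7 to 75.6 in saline pools. Its log2 fold change was 1.33 ± 0.34 (adjusted p = 0.0360). Bbc3 was dim in saline pools, 1 of which lay under background, and its leptin signals helped it to pass the brightness filter. Trp53inp1 was the lower gene, at -0.56 ± 0.15 (adjusted p = 0.0420), with overlapping pools. Of 4 other inhibitors of cyclin-dependent kinases, Cdkn1b, which encodes p27, was called higher and 3 were not called. Cdkn1b was at 826 ± 186 in leptin pools and 439 ± 77.6 in saline pools, a log2 fold change of 0.89 ± 0.17 (adjusted p = 0.00995).

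Klf9 encodes a zinc finger transcription factor that glucocorticoids induce in many tissues. On 1456341_a_at the signals were 3470.9, 3425.4, 2584.4 and 3537.9 in leptin pools and 3169.7, 3372.0, 3237.4 and 2355.5 in saline pools. The leptin 7 and saline 4 pools were low, and the treatments overlapped. The means were 3255 ± 449 with leptin and 3034 ± 460 with saline (SD), a log2 fold change of 0.10 ± 0.14 (95% interval -0.19 to 0.40, adjusted p = 0.690). Over its 6 tested probe sets the log2 fold change lay between 0.0056 and 0.19, with adjusted p from 0.620 to 0.992. The seventh, 1452723_at, was not tested, at 39.6 to 76.3 in leptin pools and 55.0 to 98.7 in saline pools. Of 13 other tested genes of the TSC22 and KLF families, 2 were called lower, 0 higher and 11 not. Their median log2 fold change was -0.068, and 3 were lower and 1 higher at an unadjusted p under 0.05. Klf6, a related zinc finger factor, was at 428 ± 82.2 in leptin pools and 864 ± 85.8 in saline pools, a log2 fold change of -1.01 ± 0.15 (adjusted p = 0.00162). Tsc22d2, which belongs to the same family as Tsc22d3, was at -0.61 ± 0.13 (adjusted p = 0.0182).

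Zbtb16 encodes PLZF, a transcriptional repressor that glucocorticoids induce strongly in several human and mouse tissues. On 1439163_at the signals were 567.5, 656.4, 984.0 and 421.8 in leptin pools and 835.0, 1003.7, 585.7 and 568.5 in saline pools, with wide overlap. The log2 fold change was -0.21 ± 0.24 (95% interval -0.73 to 0.31, adjusted p = 0.641). Its other probe sets, 1419874_x_at and 1427638_at, gave log2 fold changes of 0.31 and -0.41, with adjusted p of 0.462 and 0.335. The interval of Zbtb16 includes 0 and values above 0 as well as the fitted value of Tsc22d3.

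Tat encodes tyrosine aminotransferase, the enzyme of tyrosine breakdown whose induction by glucocorticoids in liver is a textbook case. Its probe set 1451557_at gave signals of 3790.8, 3662.0, 1673.7 and 3178.5 in leptin pools and 2676.2, 3359.0, 2912.2 and 1666.4 in saline pools. The leptin 7 and saline 4 pools lay well below the rest. The means were 3076 ± 971 with leptin and 2653 ± 716 with saline (SD), a log2 fold change of 0.19 ± 0.25 (95% interval -0.36 to 0.74, adjusted p = 0.694).

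Tat and Hsd11b1 are abundant in hepatocytes, and the pools held hepatocyte transcripts. Alb, the gene of serum albumin, had signals of 18859 ± 454 in leptin pools and 18442 ± 2966 in saline pools (SD), and Ttr, the gene of transthyretin, also overlapped. The summed signal of 10 hepatocyte markers was 124985, 122183, 103939 and 125061 in leptin pools and 85393.5, 126847, 137927 and 114436 in saline pools. The 2 pools lowest in this sum, saline 1 and leptin 7, were also the 2 lowest in Hsd11b1, and saline 3 was the highest in both. For Tat the lowest pools were saline 4 and leptin 7. The part of these transcripts in the Tat and Hsd11b1 signals was not tested.

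**Figure D2:**
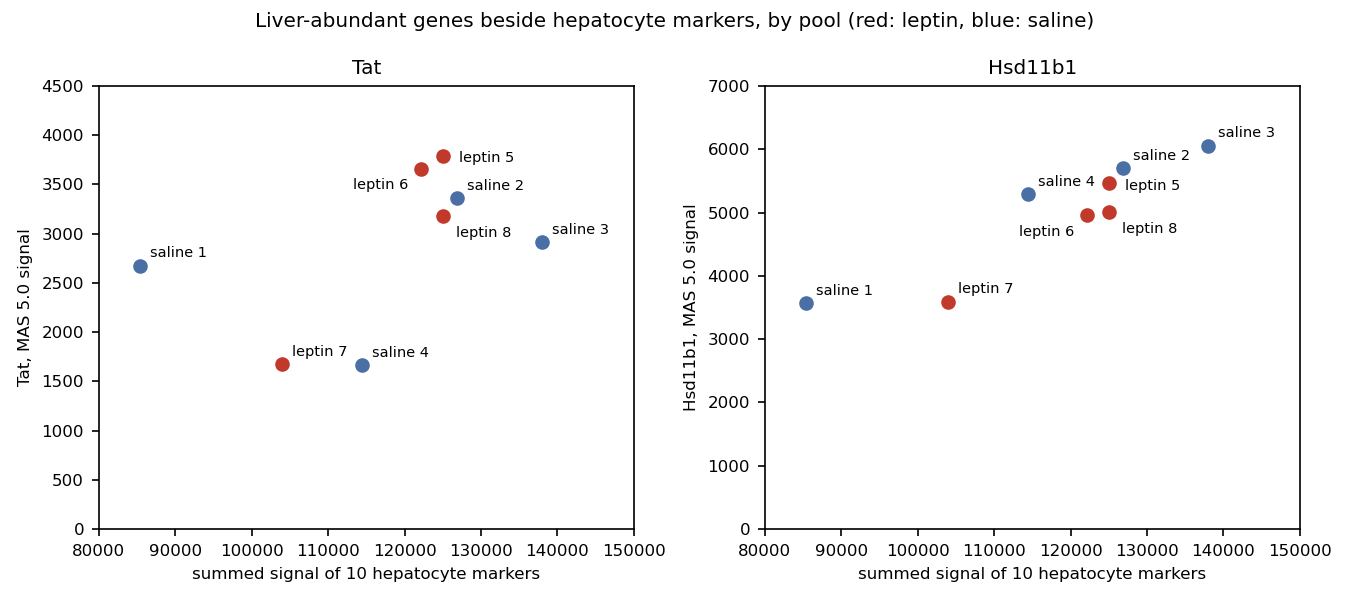
Signal of Tat (left) and Hsd11b1 (right) in each pool against the summed signal of 10 hepatocyte markers in the same pool, with leptin pools in red and saline pools in blue; the vertical axes start at 0 and the horizontal axes do not. Saline 1 and leptin 7 have the lowest marker sums and the lowest Hsd11b1 signals.

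Within the leptin treatment the 10 genes did not rank the pools alike. Leptin 7 had the highest signal of Fkbp5, Tsc22d3 and Zbtb16 and the lowest of Sgk1, Klf9, Tat and Hsd11b1. Leptin 8 had the lowest signal of Fkbp5, Tsc22d3 and Zbtb16 and the highest of Sgk1, Cdkn1a and Klf9. Among saline pools, number 1 was the highest in Fkbp5, Tsc22d3, Sgk1 and Cdkn1a. These orders describe 4 pools of each treatment and were not tested.

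**Figure D3:**
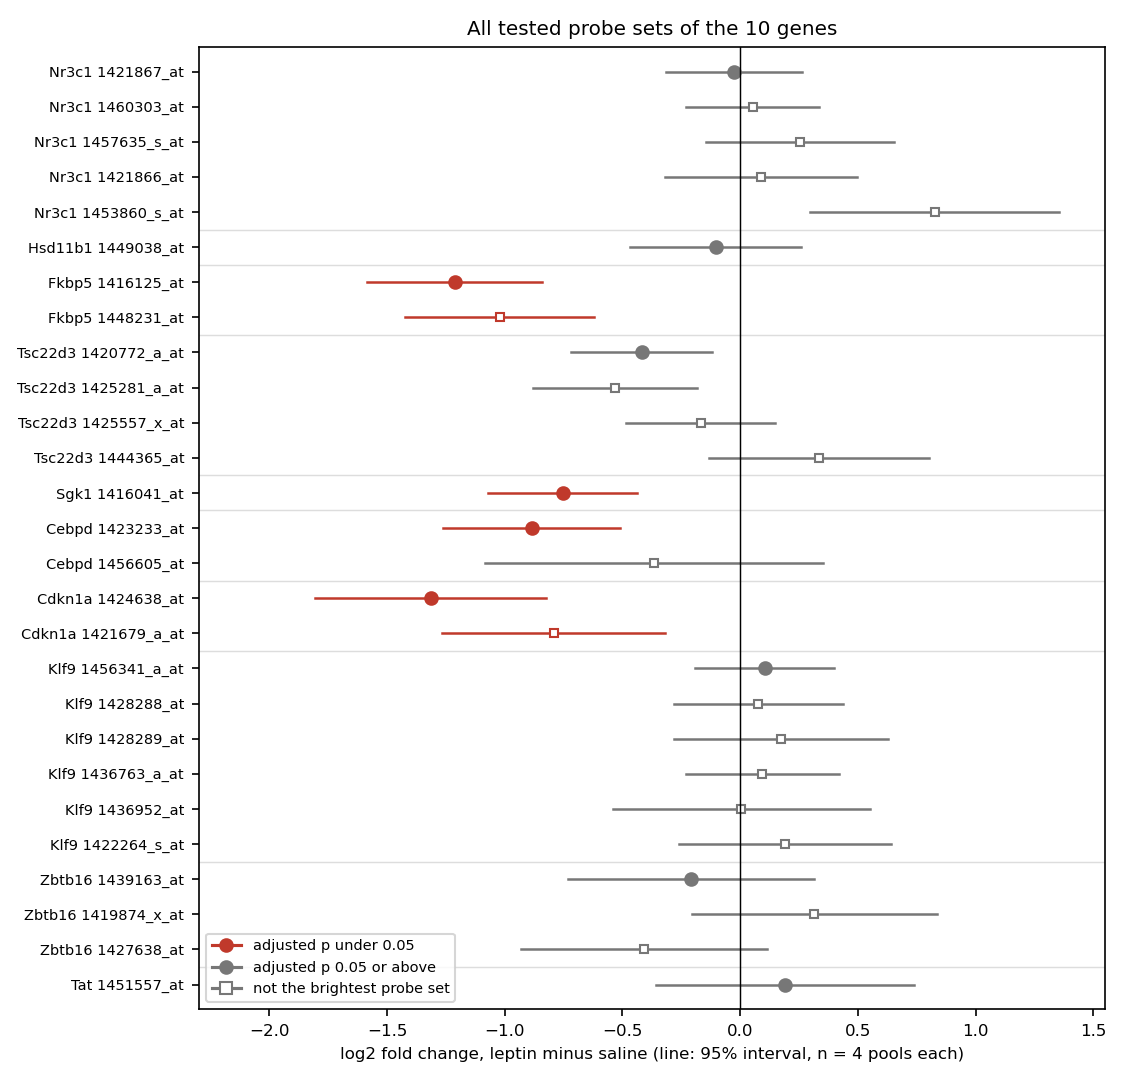
Log2 fold change, leptin minus saline, of the 27 tested probe sets of the 10 genes, with 95% intervals (n = 4 pools in each treatment); red marks an adjusted p under 0.05, and open squares mark probe sets that are not the brightest of their gene. The 6 red probe sets, of Fkbp5, Sgk1, Cebpd and Cdkn1a, lie below 0, and Nr3c1 1453860_s_at is the uncalled probe set farthest above 0.

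The 5 tested genes whose profile over the 8 pools lay closest to that of Fkbp5, by root mean square difference of centred log2 values, were Klf6 (0.16), Maff (0.17), Idi1 (0.21), Snx7 (0.22) and Ccn2 (0.24). All 5 were called lower with leptin, which follows from their choice, since the Fkbp5 profile holds its own fall. Idi1, an enzyme of isoprenoid and sterol synthesis, was at 855 ± 166 in leptin pools and 2111 ± 384 in saline pools, a log2 fold change of -1.30 ± 0.16 (adjusted p = 0.000437). Snx7, a sorting nexin, was at -0.998 ± 0.13 (adjusted p = 0.000672), and Ccn2, a matricellular protein, at -1.08 ± 0.19 (adjusted p = 0.00452).

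Other genes known to be induced by glucocorticoids moved in both directions. Of 40 such genes listed, 39 were on the array and 35 were tested. Of these, 5 were called lower, 3 higher and 27 not, with a median log2 fold change of -0.020. At an unadjusted p under 0.05, 10 were lower and 5 higher. Sult1e1, a sulfotransferase that inactivates estrogens, had signals of 49.6 to 128.7 in leptin pools and 608.1 to 1074 in saline pools, a log2 fold change of -3.24 ± 0.26 (adjusted p = 1.21e-05). Sult1e1 was dim in leptin pools, and its saline signals helped it to pass the brightness filter. The metallothionein Mt2, a metal-binding protein, was at 8365 ± 1156 in leptin pools and 12849 ± 1303 in saline pools, a log2 fold change of -0.62 ± 0.11 (adjusted p = 0.00606). Its close relative Mt1 was at -0.40 ± 0.11 (adjusted p = 0.0415), on a probe set that related transcripts can share. The clock gene Per2 was at -0.80 ± 0.20 (adjusted p = 0.0340) and Timp3, an inhibitor of metalloproteinases, at -0.70 ± 0.16 (adjusted p = 0.0226), both with overlapping pools.

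The 3 genes of that list that rose were Lcn2, Fbxo32 and Nfkbia. Lcn2, an iron-binding defence protein that inflammation also induces, was at 6439 ± 1360 in leptin pools and 2202 ± 645 in saline pools, a log2 fold change of 1.57 ± 0.20 (adjusted p = 0.000531). Fbxo32, a ubiquitin ligase known from wasting muscle, was at 414 ± 122 in leptin pools and 157 ± 33.4 in saline pools, a log2 fold change of 1.33 ± 0.22 (adjusted p = 0.00311). Nfkbia, the inhibitor of NF-κB, was at 5457 ± 200 in leptin pools and 4093 ± 138 in saline pools, a log2 fold change of 0.41 ± 0.08 (adjusted p = 0.0112). Macrophage and neutrophil markers, given above, were higher in the same pools, and their part in these values was not tested.

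Inflammatory genes that glucocorticoids are known to repress were mostly too dim to test. Of 17 listed, 6 were tested; 2 were called higher, 0 lower and 4 not, with a median log2 fold change of 0.27 and 2 lower at an unadjusted p under 0.05. Il1b, a cytokine of activated macrophages, was at 300 ± 38.7 in leptin pools and 117 ± 29.4 in saline pools, a log2 fold change of 1.32 ± 0.20 (adjusted p = 0.00178). Vcam1, an adhesion molecule of vessel walls, was at 0.53 ± 0.15 (adjusted p = 0.0480), with overlapping pools.

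Immediate early genes, which many stimuli induce within minutes, were followed because Sgk1, Cebpd and Cdkn1a can respond to such stimuli too. Of 11 tested, 4 were called lower, 0 higher and 7 not, with a median log2 fold change of -0.40. At an unadjusted p under 0.05, 7 were lower and 1 was higher. Myc, a growth-promoting transcription factor, was at 156 ± 33.8 in leptin pools and 647 ± 61.3 in saline pools, a log2 fold change of -2.02 ± 0.17 (adjusted p = 1.56e-05). Egr1 was at 1035 ± 88.4 in leptin pools and 2293 ± 461 in saline pools, a log2 fold change of -1.12 ± 0.14 (adjusted p = 0.000556). Maff was at 213 ± 50.4 in leptin pools and 496 ± 64.3 in saline pools, a log2 fold change of -1.20 ± 0.17 (adjusted p = 0.00134).

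**Figure D4:**
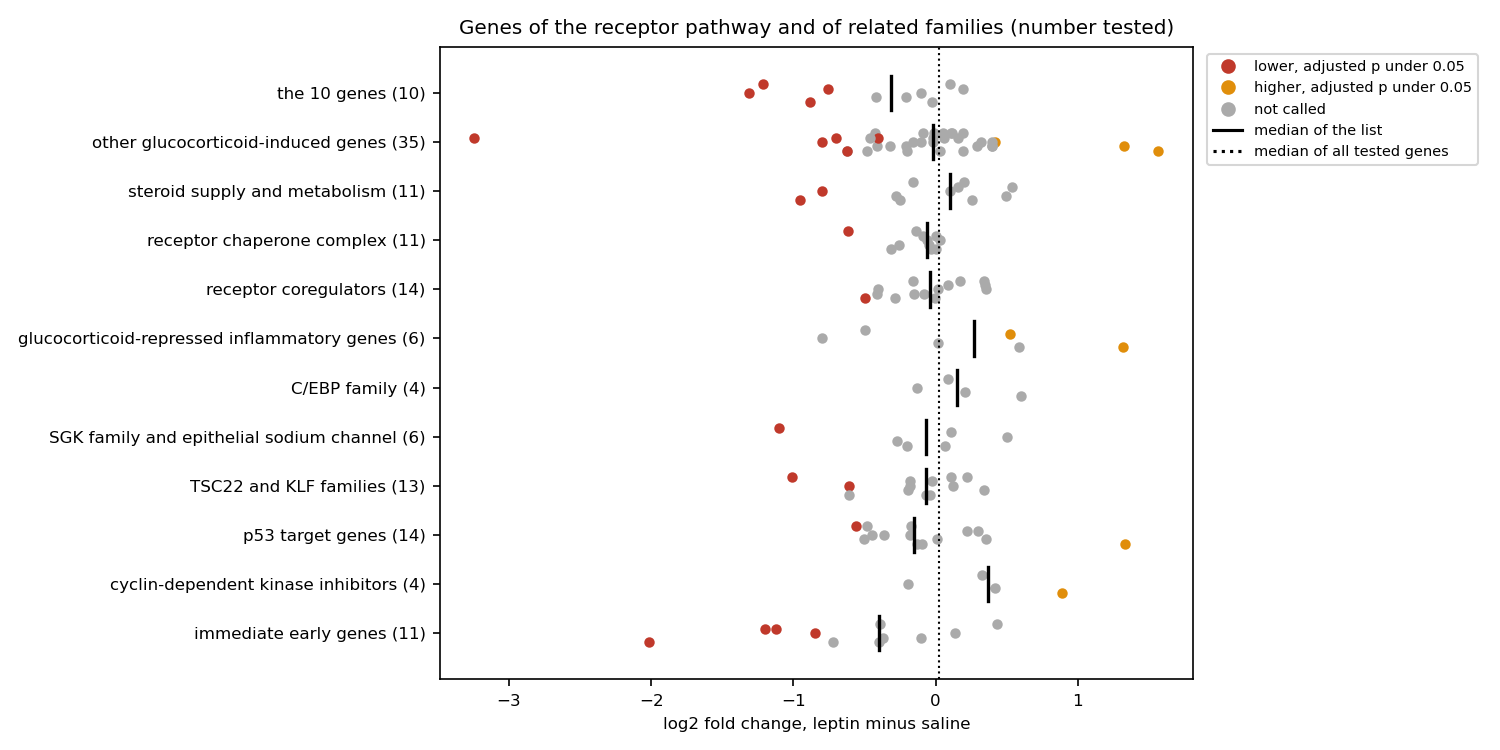
Log2 fold change, leptin minus saline, of every tested gene of the 10 genes and of 11 related lists, each gene read from its brightest probe set; red points were called lower, orange points higher and grey points not, black lines mark each list's median and the dotted line the median of all tested genes, 0.020. The 4 called members lie left of 0, while the other glucocorticoid-induced genes have called points on both sides.

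The calls of several genes that are not among the 10 rested on the settings. Calls were lost in 12 of 19 alternatives for Trp53inp1, 11 for Mt1, 10 for Vcam1, 9 for Timp3 and 8 each for Per2 and Smarca4, and in 10 of 18 for Bbc3. They were lost in 4 alternatives for Tsc22d2 and 3 each for Nfkbia and Akr1d1. Abcb1a, Hspa4, Scnn1a, Il1b, Fbxo32, Maff and Ccn2 each lost theirs in 1, the fit with the actin ratio as a covariate. Of the 4 called among the 10, none was lost in any fit that left out 1 pool. With the actin ratio of each array as a covariate, Fkbp5 (-1.004, adjusted p = 0.0477) and Cebpd (-1.13, adjusted p = 0.0311) kept their calls. Sgk1 (-0.77, adjusted p = 0.0823) and Cdkn1a (-1.06, adjusted p = 0.108) lost theirs. The fitted value of Sgk1 was -0.75 ± 0.15 as reported and -0.77 ± 0.22 with the covariate. For Fkbp5 these were -1.21 ± 0.17 and -1.004 ± 0.25, and Cdkn1a was at -1.31 as reported. Centring each array on its median moved the median of all tested probe sets to -0.21, against 0.039 as reported here, and called 406 probe sets higher and 3586 lower, against 798 higher and 763 lower. Under that scaling Klf9 and Tat changed sign, to -0.15 and -0.060, and Fkbp5, Sgk1, Cebpd and Cdkn1a stayed called lower.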

How the data were processed

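The deposited values are linear intensities that the authors computed with MAS 5.0, as a signal for each probe set on each array (MAS5 stands in the submitters' processing notes). Software version, detection calls and scan dates were not given in the sources used here, and batches were therefore not examined. Arrays carry a 2% trimmed mean of 250, so a change shared by all transcripts would not be seen. Here, each array was brought to the mean trimmed signal, 64 control probe sets were left out, and log2(signal + 8.2) was taken, 8.2 being the 10th percentile of all values, which understates fold changes of dim genes. The 22519 probe sets at or above the median were tested with limma 3.58.1 in R 4.3.3 (two-sided, eBayes with a trend of variance on mean, Benjamini-Hochberg adjustment over all of them, threshold 0.05). The script was tested on simulated data. Background, 46.0, is the 95th percentile of 27 control probe sets for bacterial transcripts absent from the samples.

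Of 45101 probe sets, 34958 had 1 symbol, 932 several and 9211 none; 34754 symbols were updated to the GRCm38.p6 gene table. Groups came from the labels. The 10 genes, the 21 related and marker lists (236 of 256 symbols on the array) and the tests were chosen with earlier results of these data known. Named were all 10 genes with each probe set, every called gene among other glucocorticoid-induced genes, the 3 called genes of lowest p in each further list (or the 1 tested gene of lowest p where 0 were called), the 2 brightest markers of each type and the 5 genes most like Fkbp5. Alternatives covered scaling, pseudocount (1 and 32), filter, variance model, array weights, the actin ratio, the probe sets of a gene and leaving out each pool. With 8 arrays, their number limits the precision.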

Additional observations from a re-analysis of the deposited data

Results flagged for a closer look

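Each of the 30 probe sets of the 10 genes was examined in both treatments, 60 groups of 4 pools, on the log2(signal + 8.2) scale, for a pool whose gap to its nearest neighbour exceeded Dixon's 95% limit as a share of the group's range. This occurred in 5 groups, where chance gives about 1 in 20. For Nr3c1 1421867_at the leptin 5 pool had a signal of 883.8, with the other leptin pools at 731.1 to 744.1. For Fkbp5 1447736_at the leptin 6 pool had 22.5, with the others at 0.90 to 3.00 and all under background. For Klf9 1456341_a_at the leptin 7 pool had 2584, with the others at 3425.4 to 3537.9. For Zbtb16 1419874_x_at the saline 4 pool had 120.9, with the others at 202.2 to 222.7. For Zbtb16 1427638_at the saline 2 pool had 151.7, with the others at 138.6 to 138.9. Of these 5 probe sets, 1447736_at was not tested and the other 4 were not called between treatments. On the linear signals, a scale added after the data were seen, 6 groups passed the same limit: those of Nr3c1, Fkbp5 1447736_at, Klf9 and Zbtb16 1427638_at, and 2 of called probe sets. These 2 were Fkbp5 1448231_at, where leptin 7 had 737.2 and the other leptin pools 411.8 to 457.3, and Cebpd 1423233_at, where saline 3 had 982.2 and the other saline pools 617.3 to 672.3.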

How the results depend on the processing

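No paired analysis was possible because the leptin and saline pools share no replicate number. Of the 10 genes, 4 were called as reported and 3 (mean of a gene's probe sets) to 5 under 19 of 20 alternatives; with the actin covariate 2 genes and 2 probe sets (6 as reported) were called. Leaving out 1 pool gave 4 to 5 genes and 5 to 7 probe sets. Over all probe sets, 1561 were called as reported, 3992 with median centring and 654 with the actin covariate, and 878 (without saline 2) to 1436 without 1 pool, with 892 without leptin 6, 994 without leptin 8 and 929 without saline 4. Of the calls, 48.9% were lower as reported, 89.8% with centring, 61.9% with the actin covariate, 63.9% above the 75th percentile filter and 36.0% without the mean-variance trend. Of the other glucocorticoid-induced genes, 8 were called as reported, 13 with centring, 4 without the trend, 5 with the actin covariate, 5 with the mean of a gene's probe sets, and 5 (without leptin 6, and without leptin 8) to 8 without 1 pool. The cause of these shifts was not tested.

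Direction turned only for genes never called. Nr3c1 came to 0.017 (quantile), 0.045 (cyclic loess) and 0.24 (mean of its probe sets), and to -0.095 to 0.076 without 1 pool, above 0 without saline 3. Hsd11b1 came to 0.023 (quantile) and 0.043 (cyclic loess), and to -0.27 to 0.025 without 1 pool, above 0 without leptin 7. With the actin covariate Hsd11b1 was at -0.58 (adjusted p = 0.111) and Nr3c1 at -0.27, and with centring they were at -0.35 and -0.28. Klf9 came to -0.15 (centring) and -0.16 (actin covariate), and to -0.013 (without saline 4) to 0.21 without 1 pool. Zbtb16 came to 0.15 (actin covariate). Tat came to -0.060 (centring) and -0.50 (actin covariate), and to -0.018 (without saline 4) to 0.46 without 1 pool. Fkbp5 1448231_at lost its call with the actin covariate (-0.65, adjusted p = 0.173), and Nr3c1 1453860_s_at gained one without the trend (adjusted p = 0.0381). Tsc22d3 1425281_a_at gained one in 3 alternatives, reaching -0.78 (adjusted p = 0.00605) with centring. These single probe sets were added after their values were seen.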
